A study of Saccharomyces cerevisiae with 13 samples.

Results

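The 32 genes described here encode subunits of the yeast 26S proteasome. They were chosen by systematic name as the genes of the 20S core (PRE, PUP and SCL1, 14 genes) and of the 19S regulatory particle (RPT, 6 genes, and RPN, 12 genes), out of 5681 genes that had a count in at least 1 library. Budding yeast was sampled under 2 conditions, with 2 libraries of each assay (disome-seq, monosome-seq, mRNA-seq). In the 3-AT condition, cells labelled S288C grew in synthetic medium lacking histidine (SC-His), at 30 °C, with 100 mM 3-AT (3-amino-1,2,4-triazole, which inhibits the histidine biosynthesis enzyme encoded by HIS3). In rich medium, cells labelled BY4742 (MATα his3Δ1 leu2Δ0 lys2Δ0 ura3Δ0) grew at 30 °C in YPD. Strain, medium and drug change together between the conditions, so their contributions cannot be told apart. A further library, from rich medium, holds footprints of transcripts that carried 2 ribosomes.

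Disome-seq reads the mRNA fragment that 2 stacked ribosomes protect from RNase I, monosome-seq the shorter fragment under 1 ribosome, and mRNA-seq fragments of the mRNA itself. The tables hold the length classes 55 to 65 nt, 20 to 30 nt and 28 to 29 nt, with totals of 18790 to 47391 counts in disome-seq, 230583 to 800994 in monosome-seq and 544499 to 2836320 in mRNA-seq. Each value is a share of a library, so that more transcript or footprint per cell and less of everything else cannot be told apart. HIS3 was at 1109 and 1062 CPM (counts per 1000000 of the library) of mRNA-seq under 3-AT, against 66.0 and 84.6 in rich medium. URA3, absent from a strain with ura3Δ0, had 22 and 14 mRNA-seq counts under 3-AT and 138 and 181 in rich medium, which goes against the strain label of the rich-medium libraries. LYS2, absent with lys2Δ0, had 62 footprints in the two-ribosome library, labelled BY4742 as well. Under 3-AT, LEU2 and LYS2, which S288C carries, had no count, but LEU2 was listed in 0 and LYS2 in 1 of the 6 tables, so the 3-AT strain label is not borne out by them either.

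The proteasome degrades proteins that carry ubiquitin chains. Its 20S core is a stack of α and β rings, and 3 β subunits, encoded by PRE3 (caspase-like site), PUP1 (trypsin-like site) and PRE2 (chymotrypsin-like site), hold the catalytic sites inside it. On top sits the 19S particle, in which the RPT1 to RPT6 ATPases form a ring that unfolds substrates, RPN10 and RPN13 bind ubiquitin and RPN11 removes it. In yeast the subunit genes are known for their common regulation by the transcription factor Rpn4, which binds an upstream sequence called the proteasome-associated control element.

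The letters of that element, GGTGGCAAA, were searched on both strands of the 250 nt before each start codon in the R64 genome. A match was found for 27 of 32 members (84.4%), against 67 of 5674 genes (1.18%), 40 of which are not members. By subcomplex, 12 of 14 core genes, 6 of 6 RPT genes and 9 of 12 RPN genes held it. PRE5, PUP1, RPN8, RPN10 and RPN13 had no match in this window. None of the members had 2 matches, and the element ended 75 to 174 nt before the start codon (median 111 nt). It read on the strand of the gene in 19 members and on the opposite strand in 8. The windows below are of members on which the results turn, written 5′ to 3′ on the strand of the gene, and the capitals mark the element or its reverse complement TTTGCCACC.
RPN5 (YDL147W, chrIV:190771-190809, forward): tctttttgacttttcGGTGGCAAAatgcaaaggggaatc
RPN12 (YFR052W, chrVI:252393-252431, forward): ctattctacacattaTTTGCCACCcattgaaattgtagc
RPT3 (YDR394W, chrIV:1261490-1261528, forward): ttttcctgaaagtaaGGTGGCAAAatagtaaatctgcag
RPT4 (YOR259C, chrXV:813797-813835, reverse): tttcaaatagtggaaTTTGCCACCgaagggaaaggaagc
PRE3 (YJL001W, chrX:435030-435068, forward): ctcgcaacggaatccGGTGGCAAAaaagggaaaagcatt
PRE10 (YOR362C, chrXV:1018851-1018889, reverse): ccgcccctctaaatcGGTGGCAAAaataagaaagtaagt
PUP2 (YGR253C, chrVII:999221-999259, reverse): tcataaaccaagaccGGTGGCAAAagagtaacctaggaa
The search asked for these exact letters, so that their identity across the 7 windows is by choice. Between the conditions, of the 27 members with a match mRNA-seq rose for 5 and fell for 16, and of the 5 members without one it rose for 0 and fell for 2, where 37.7% of all genes tested were called higher and 37.7% lower.

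In rich medium the members sat close to each other in monosome-seq. Their level per kb of coding sequence (CPM of the table per kb, a level) spanned 138 to 430, 3.11-fold, with a median of 227, and all 32 lay within 2-fold of that median. Under 3-AT the span was 114 to 1463, 12.8-fold, with a median of 259, and 22 of 32 lay within 2-fold of it. The SD of the log2 level over the members was 0.960 under 3-AT, against 0.434 in rich medium. The median of all genes was 46.7 under 3-AT and 31.8 in rich medium, and the members' median lay above it in both. Under 3-AT the highest members were PRE3 (1112 and 1814 in the 2 libraries), RPN12, a lid subunit (1335 and 1351), and PUP2, an α subunit (892 and 759). The lowest were RPN2, RPN3 and RPN1, with means of 114, 125 and 141. In rich medium PRE6, RPT1 and RPT4 were highest, with means of 429.9, 399 and 372, and RPN7, RPN1 and RPN9 lowest, with 138, 145 and 152.

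**Figure D1:**
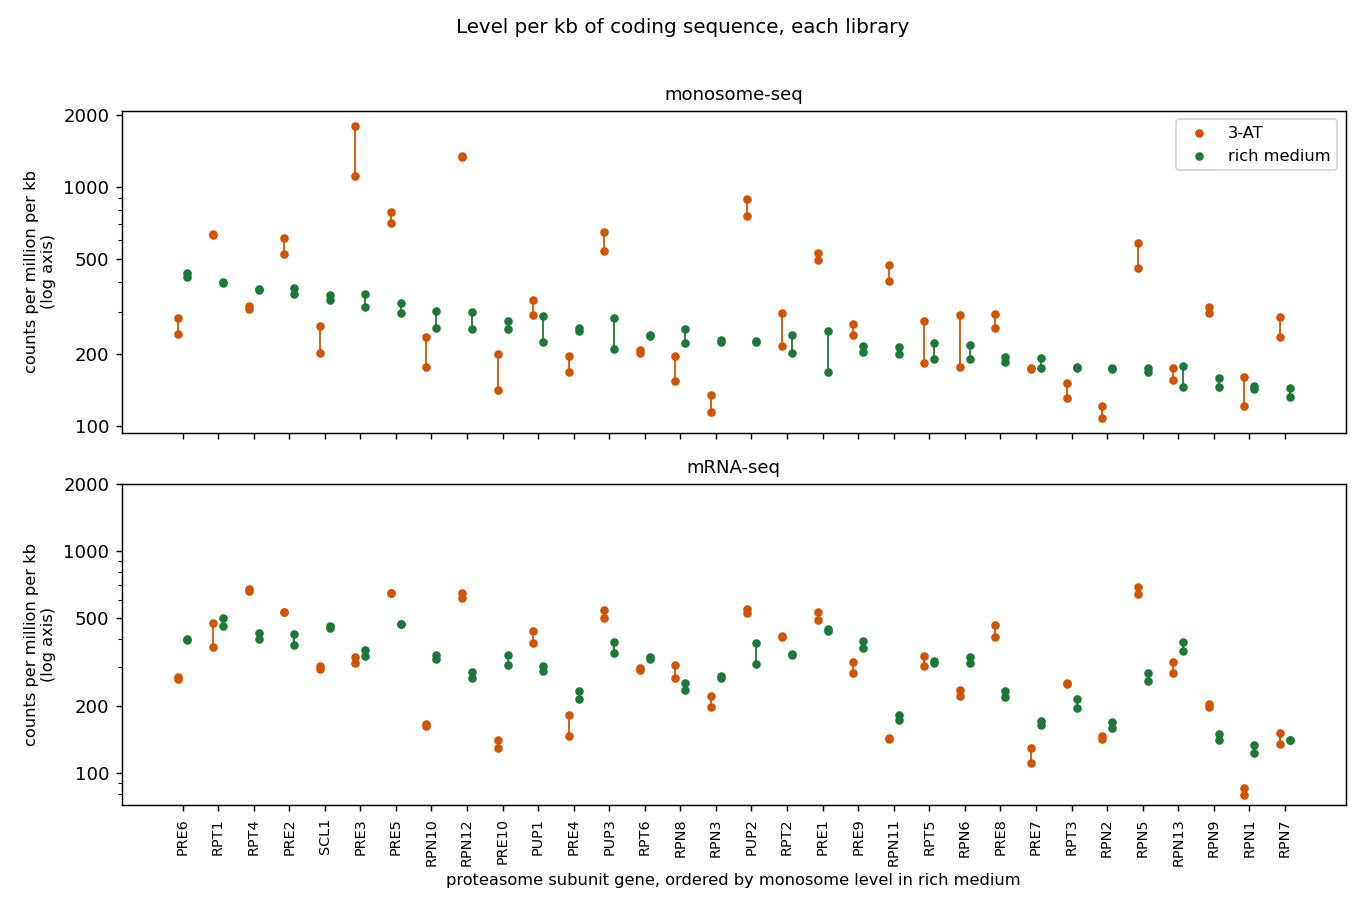
Level per kb of coding sequence of the 32 members in monosome-seq (top) and mRNA-seq (bottom), in CPM per kb on a log axis, with genes ordered by their monosome level in rich medium. Each point is a library, and a line joins the 2 libraries of 3-AT (orange, left) or rich medium (green, right). The orange points of PRE3, RPN12 and PUP2 stand highest in monosome-seq, and the green points span only 138 to 430 in group means.

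The mRNA-seq levels showed the same widening to a smaller degree. They spanned 82.5 to 664 per kb under 3-AT (8.04-fold, median 299), against 128 to 478 in rich medium (3.75-fold, median 322). RPT4, RPN5 and PRE5 were highest under 3-AT (664, 661 and 645), and RPT1, PRE5 and SCL1 in rich medium (478, 465 and 454). RPN1 was lowest in both conditions, at 82.5 under 3-AT and 128 in rich medium. PRE7 and PRE10 followed it under 3-AT (120.2 and 135), RPN7 and RPN9 in rich medium (141 and 145). In disome-seq, where a member had few counts, levels ran from 0 (RPN13) to 1459 (PUP3) under 3-AT with a median of 423, and from 27.2 (PRE9) to 313 (PRE10) in rich medium with a median of 123. PUP3, PUP1 and RPN5 were highest under 3-AT (1459, 1437 and 1406) and RPN13, RPN3 and PRE4 lowest (0, 60.2 and 62.8). In rich medium PRE10, RPT5 and PRE2 were highest (313, 275 and 251) and PRE9, PRE1 and RPN9 lowest (27.2, 48.3 and 48.8).

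As a sum, the 32 genes took a larger share of the counts of each table under 3-AT. Their share of disome-seq counts was 1.64% ± 0.144 under 3-AT and 0.489% ± 0.0240 in rich medium (SD, n = 2 each). Their share of monosome-seq counts was 1.17% ± 0.0733 under 3-AT and 0.811% ± 0.00612 in rich medium. In mRNA-seq the shares were 1.07% ± 0.0189 under 3-AT and 0.980% ± 0.00610 in rich medium. In all 3 assays both 3-AT libraries lay above both rich-medium libraries, but 2 libraries against 2 are too few for an exact test to pass 0.05, and none was made. Without PRE3, RPN12 and PUP2, chosen after their values were seen, the monosome share was 0.899% ± 0.0476 under 3-AT and 0.749% ± 0.00534 in rich medium. A share uses the total of the table, on which scale the median gene rose as well, by 0.315 in monosome-seq (members 0.18) and by 0.33 in mRNA-seq (members -0.053). The disome shares rest on 368 and 289 counts of members under 3-AT, against 240 and 164 in rich medium.

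The transcripts moved in both directions, with more members lower than higher. Differences were tested with edgeR over all genes, on CPM scaled by TMM factors, and called at a Benjamini-Hochberg adjusted p of 0.05. Under 3-AT mRNA-seq of 5 members was higher, namely RPN5, RPN12, PRE8, RPT4 and PUP2, and of 18 lower, of 32 tested, where 37.7% of all 5290 genes tested were called higher and 37.7% lower. The members' median log2 fold change was -0.37, against 0.0082 over all genes. Fallers were spread over the subcomplexes (7 of 14 core, 3 of 6 RPT and 8 of 12 RPN genes). With the totals of the tables in place of TMM factors, 13 members were called higher and 13 lower, and the median of all genes was 0.33. With the mapped reads that the study lists as library sizes the split was 0 higher and 32 lower, and the median of all genes was -1.67. The totals of the 2 rich-medium tables (2256785 and 2836320) exceed the reads listed for these libraries. The listed reads thus do not count what the tables hold, and that split cannot be read as a result. The zero of each change, and with it the count of rises and falls, is set by the scaling.

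RPN5 (YDL147W, chromosome IV, 190924 to 192261, forward strand), a lid subunit, was at 823 and 760.3 scaled CPM under 3-AT, against 386 and 422 in rich medium. Its log2 fold change in mRNA-seq was 0.97 (SE 0.075, adjusted p = 2.11e-24). RPN12 (YFR052W, chromosome VI, 252505 to 253329, forward), another lid subunit, had 454 and 475 under 3-AT, against 260.5 and 246 in rich medium (log2 0.87, SE 0.086, adjusted p = 1.73e-17). These are a 1.96-fold and a 1.83-fold level, and the groups did not overlap in either gene. The α subunit gene PRE8 was at 312 and 276 under 3-AT, against 195 and 186 in rich medium (0.64, SE 0.099, adjusted p = 5.25e-09). The rises of RPT4 and PUP2 were smaller, 0.37 and 0.31.

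The largest fall was that of PRE10 (YOR362C, chromosome XV, 1017880 to 1018746, reverse strand), an α subunit gene, with 109.5 and 100.2 under 3-AT, against 326 and 299 in rich medium (-1.56, SE 0.12, adjusted p = 2.03e-25). RPN10, the ubiquitin receptor, was at 117 and 119.9 under 3-AT, against 292 and 306 (-1.34, SE 0.11, adjusted p = 1.58e-21). RPN1, the large scaffold of the 19S base, was at 229 and 212 under 3-AT, against 441 and 409 (-0.94, SE 0.095, adjusted p = 4.94e-17). These 3 genes were at 0.340, 0.395 and 0.522 of their rich-medium level, with no overlap between the groups. The other 15 that fell ranged from SCL1 (-0.93) to RPT5 (-0.29), and RPT5 and RPN7 turned to 0.033 and 0.0079 with the totals of the tables. Transcripts of PRE1, PRE2, PRE5, PUP1, PUP3, RPT2, RPT3, RPN8 and RPN9 did not pass the test. Among them is PUP1, a catalytic subunit gene, at 306 and 269 under 3-AT and 251 and 267 in rich medium.

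In monosome footprints as many members rose as fell. Their log2 fold changes ran from -1.16 to 1.97, against -1.56 to 0.97 in mRNA-seq, so the largest rise was greater and the largest fall smaller. Of 32 tested, 12 were higher and 12 lower under 3-AT, where 33.8% of the 4169 genes tested were called higher and 31.7% lower. The members' median was -0.11, against 0.027 over all genes. Core genes rose in 6 and fell in 4 of 14 cases, RPT genes in 1 and 3 of 6, and RPN genes in 5 and 5 of 12. With the totals of the tables the split was 13 higher and 7 lower, the members' median 0.18 and that of all genes 0.315, and without 3-AT replicate 1 of monosome-seq the members' median was 0.018.

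RPN12 rose most, with 1022 and 982 scaled CPM under 3-AT, against 276 and 232 in rich medium (log2 1.97, SE 0.13, adjusted p = 8.43e-15). PRE3 (YJL001W, chromosome X, 435163 to 435926, forward, 2 coding exons), the caspase-like catalytic subunit gene, was at 669 and 1036 under 3-AT, against 226 and 256 (1.82, SE 0.15, adjusted p = 5.25e-12). Its 2 libraries under 3-AT differed more than those of the other risers, yet both lay well above rich medium. PUP2 was at 648 and 524 under 3-AT, against 198 and 194 (1.58, SE 0.14, adjusted p = 2.93e-11). RPN5 (1.31), PUP3 (1.02), PRE5 (0.97), PRE1 (0.97), RPN11 (0.79), RPN9 (0.73), RPN7 (0.64), RPT1 (0.38) and PRE2 (0.33) also rose. The 12 include 2 of the 3 catalytic subunit genes, PRE3 and PRE2, and the deubiquitinase gene RPN11. The call of PRE2 (adjusted p = 0.0351) was lost with DESeq2 and its size factors, with no filter, with the replicate block and without either rich-medium replicate or 3-AT replicate 2 (adjusted p up to 0.316).

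RPN3, a lid subunit gene, fell most, with 166 and 187 scaled CPM of monosome-seq under 3-AT, against 393 and 398 in rich medium (-1.16, SE 0.16, adjusted p = 1.91e-07). PRE6 was at 201 and 164 under 3-AT, against 359 and 368 (-0.99, SE 0.16, adjusted p = 4.30e-06), and PRE10 at 114 and 153, against 245 and 263 (-0.93, SE 0.19, adjusted p = 8.02e-05). PRE6 and PRE10 both encode α subunits. RPN2, SCL1, PRE4, RPN8, RPN10, RPT3, RPT4, RPT6 and RPN1 fell as well, from -0.90 (RPN2) to -0.35 (RPN1). Subunit genes whose products share a ring differed in their footprints: of the 7 α subunit genes, PUP2 and PRE5 rose, PRE6, PRE10 and SCL1 fell, and PRE8 and PRE9 did not pass the test.

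**Figure D2:**
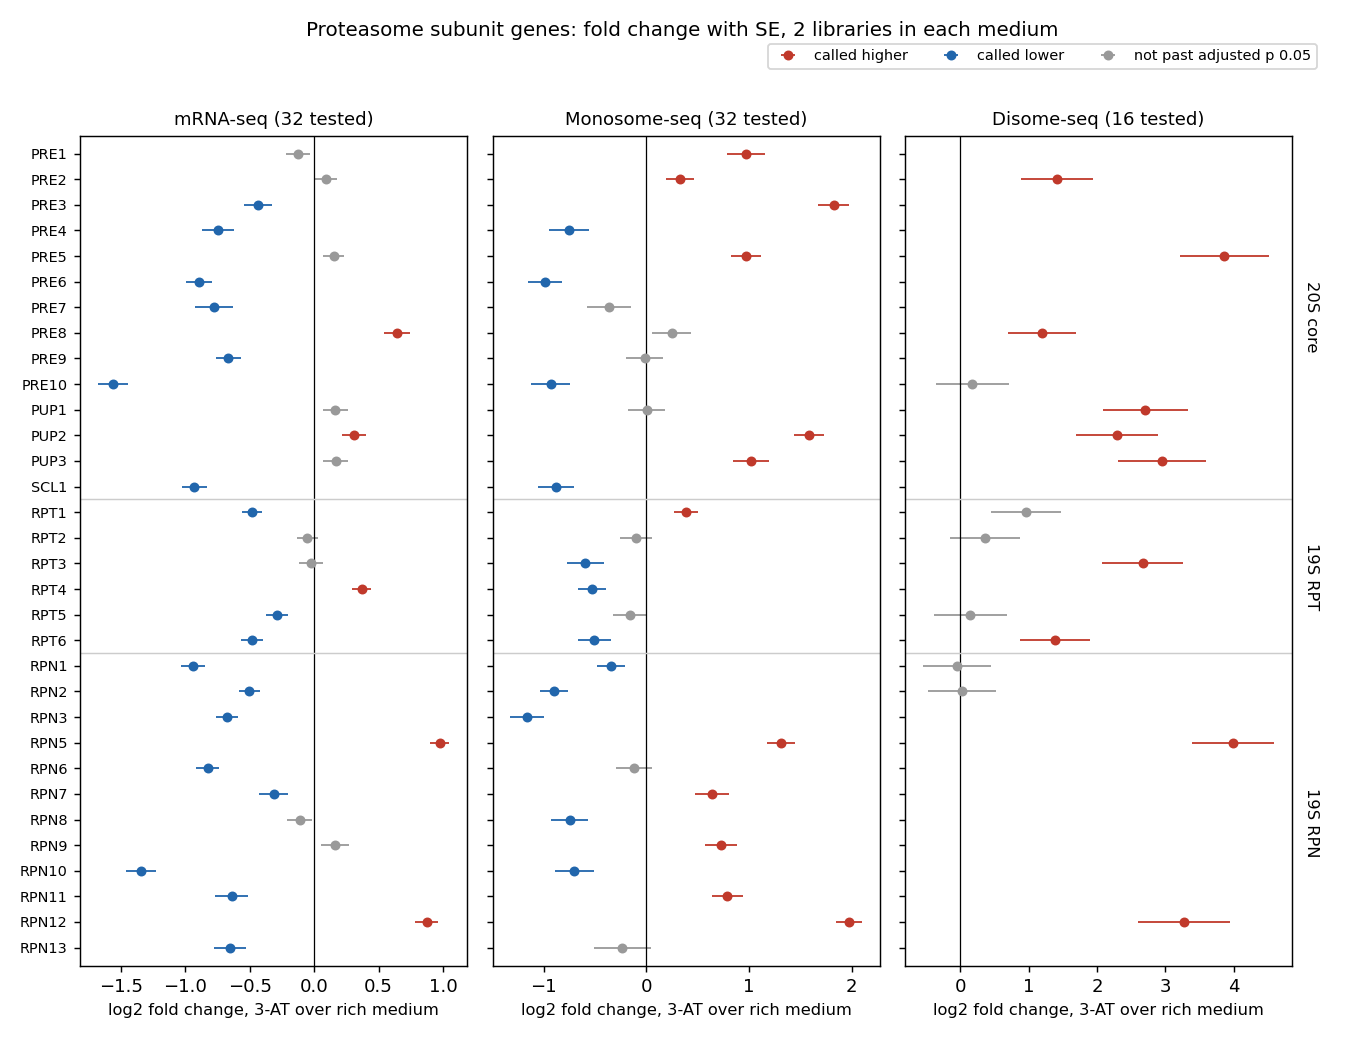
Log2 fold change of each member, 3-AT over rich medium, in mRNA-seq, monosome-seq and disome-seq (from left), with bars of 1 SE from the edgeR fit to 2 libraries in each condition. Red points were called higher, blue lower and grey neither, and members with too few disome counts are blank. The mRNA-seq panel holds 5 red and 18 blue points, the monosome-seq panel 12 of each, and the disome-seq panel 10 red points and no blue one.

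Set side by side, the 2 assays gave different calls for many members. Of all genes tested, 37.7% were called higher and 37.7% lower in mRNA-seq, and 33.8% and 31.7% in monosome-seq. The pairs of calls were not counted over all genes, so whether the members differ from other genes in this was not tested. Of the 12 members with more monosome footprints under 3-AT, 3 also had more mRNA (PUP2, RPN12 and RPN5), 4 had less (PRE3, RPN11, RPN7 and RPT1) and 5 were not called in mRNA-seq (PRE1, PRE2, PRE5, PUP3 and RPN9). RPT4 was higher in mRNA-seq and lower in monosome-seq. 9 members were lower in both.

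The change of monosome over mRNA was tested as an interaction of assay and condition, which asks whether footprints moved differently from the transcript. It was higher under 3-AT for 14 members and lower for 5 of 32 tested, where 16.9% of the 5160 genes tested were called higher and 12.1% lower, and the members' median was 0.38, against 0.078 over all genes. Of the 14 core genes 6 were higher and 0 lower, with PRE8 at -0.44 (adjusted p = 0.113). DESeq2 called 9 members higher and 5 lower, and at an unadjusted p under 0.05 the edgeR test put 15 higher and 6 lower. The count of members higher was 9 without rich-medium replicate 2 of monosome-seq and 9 without 3-AT replicate 1 of mRNA-seq. The count lower was 2 without rich-medium replicate 1, 3-AT replicate 1 or 3-AT replicate 2 of monosome-seq, and 3 without rich-medium replicate 1 of mRNA-seq. With the mapped reads of the study the split was 32 higher and 0 lower, and the median of all genes was 1.89.

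PRE3 changed most, with a log2 ratio of mean monosome to mean mRNA CPM of 2.19 under 3-AT, against -0.040 in rich medium, and a fitted change of 2.21 (SE 0.17, adjusted p = 7.96e-31). Its transcript fell by 0.44 while its footprints rose. RPN11 had log2 ratios of 1.62 under 3-AT and 0.23 in rich medium, with a change of 1.38 (SE 0.20, adjusted p = 5.00e-10), and PUP2 of 0.62 and -0.61, with a change of 1.23 (SE 0.17, adjusted p = 1.14e-10). RPN12, PRE1, RPN7, RPT1, PUP3, PRE5, RPN6, PRE9, RPN10, RPN1 and RPN9 were also higher, by 1.06 (RPN12) to 0.53 (RPN9). The ATPase gene RPT4 had log2 ratios of -1.08 under 3-AT and -0.15 in rich medium, with a change of -0.94 (SE 0.16, adjusted p = 1.19e-07). RPN8, the partner of RPN11 in the lid, had ratios of -0.71 and -0.042, with a change of -0.68 (SE 0.21, adjusted p = 0.00673), and RPT3 of -0.84 and -0.22, with a change of -0.61 (SE 0.21, adjusted p = 0.0157). RPN3 and RPN2 were lower by -0.53 and -0.44. RPN11 and RPN8, whose products pair, thus moved in opposite directions with this scaling. With the study's mapped reads, which do not count the reads fitted here, the change of RPN8 was 1.14. Over the conditions, 25 of 32 members lay above the all-gene median of this ratio under 3-AT and 27 of 32 in rich medium.

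Disome counts of the members were few, and 16 of 32 passed the filter on low counts. Of these, RPN1 and RPN2 passed in both conditions, PRE10 through 1 library of each, and 13 through their 3-AT libraries alone, so that these 13 could hardly have been called lower, and the counts below describe the tested members only. Under 3-AT 10 of the 16 were higher and 0 lower, where 37% of the 624 genes tested were called higher and 43.1% lower. All 10 are among the 13 that passed only through 3-AT, so their count against that share supports nothing. At an unadjusted p under 0.05 the edgeR test gave 0 lower as well, and DESeq2 called 7 higher and 0 lower. With no filter, all 32 were tested, 8 were higher and 0 lower, where 7.07% of 4595 genes were called higher and 11.3% lower, and the members' median was 1.00, against -0.37 over all genes. Without rich-medium replicate 2 of disome-seq, 6 were higher. With the study's mapped reads, all 16 were higher, and the median of all genes was 4.35.

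RPN5 rose most, with 1465 and 1579 scaled CPM of disome-seq under 3-AT (39 and 36 counts), against 114 and 64.9 in rich medium (4 and 2 counts). Its log2 fold change was 4.0 (SE 0.60, adjusted p = 6.71e-06). PRE5 (YMR314W, chromosome XIII, 901709 to 902413, forward), an α subunit gene, had 827 and 614 under 3-AT (22 and 14 counts), against 28.6 and 64.9 (1 and 2 counts), a log2 fold change of 3.87 (SE 0.65, adjusted p = 2.30e-05). RPN12 had 714 and 526 under 3-AT (19 and 12 counts), against 114 and 0 (4 and 0 counts), 3.28 (SE 0.67, adjusted p = 0.000172). In each of these 3 genes both 3-AT libraries lay above both rich-medium libraries, and the rich-medium value rests on at most 4 counts in a library. PUP3 (2.96), PUP1 (2.71), RPT3 (2.67), PUP2 (2.29), PRE2 (1.41), RPT6 (1.38) and PRE8 (1.19) rose as well. RPT6 and PRE8 lost the call under 6 alternatives each, DESeq2 and the replicate block among them (adjusted p up to 0.452 and 0.412), PRE2 under 4 (up to 0.21) and PUP2 without rich-medium replicate 2 (0.142). The tested members that were not called were RPT1 (0.96, adjusted p = 0.0869), RPT2 (0.36), PRE10 (0.17), RPT5 (0.14), RPN2 (0.022) and RPN1 (-0.050).

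Of the 10 members with more disome footprints, 6 also had more monosome footprints (PRE2, PRE5, PUP2, PUP3, RPN12 and RPN5), 2 had fewer (RPT3 and RPT6) and PRE8 and PUP1 were not called in monosome-seq. These pairs of calls were not counted over all genes either, so they say nothing particular to the members. The disome call of RPT6 was less firm by the losses just given. The monosome falls of RPT3 and RPT6 were both lost with the totals of the tables and with DESeq2. RPN13, a ubiquitin receptor gene and the 1 member with 0 histidine codons, had 0 and 0 disome counts under 3-AT, against 5 and 1 in rich medium. A count of 0 allows up to 75.1 CPM over both 3-AT libraries (3 counts), and rich medium was at 73.1, so that no difference was detectable at this depth.

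Setting disome against monosome footprints compares a gene's scaled share in 2 separate libraries, so a difference is relative to the other genes. It does not count stacked against single ribosomes. Under 3-AT, 7 members were higher in disome-seq than in monosome-seq and 2 lower of 31 tested, where 11.4% of the 2275 genes tested were called higher and 20.2% lower. The members' median was 0.22, against -0.39 over all genes. RPT3 (YDR394W, chromosome IV, 1261681 to 1262967, forward), an ATPase gene, had 833 and 1031 scaled CPM in disome-seq, against 211 and 173 in monosome-seq, a log2 difference of 2.27 (SE 0.36, adjusted p = 4.60e-05). PUP1 (YOR157C, chromosome XV, 630966 to 631751, reverse), the trypsin-like catalytic subunit gene, had 1065 and 1079.6 in disome-seq, against 288 and 234 in monosome-seq (2.03, SE 0.33, adjusted p = 5.79e-05). PRE10 had 602 and 245 in disome-seq, against 134 and 177 (1.46, SE 0.51, adjusted p = 0.0329), with its disome libraries far apart. RPN5, PRE8, PUP3 and RPN2 were higher by 1.29, 1.19, 1.17 and 1.06.

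On the low side, PRE3 had 92.6 and 245 in disome-seq under 3-AT (2 and 5 counts), against 783 and 1199 in monosome-seq (-2.56, SE 0.51, adjusted p = 0.000545). The member with the highest monosome level per kb thus had few disome footprints, near the floor of 3 counts. RPT4 (YOR259C, chromosome XV, 812395 to 813708, reverse) had 92.6 and 98.1 (2 and 2 counts), against 454 and 416 (-2.18, SE 0.61, adjusted p = 0.00962). With the totals of the tables the count was 10 higher and 2 lower, and with the study's mapped reads 0 higher and 20 lower. DESeq2 called 3 higher and 2 lower. The count higher was 3 without replicate 1 of disome-seq, 2 without replicate 1 and 3 without replicate 2 of monosome-seq. The count lower was 0 without replicate 1 of disome-seq and 1 without any other of these 4 libraries. RPT3 and PUP1 were called under every alternative but the study's mapped reads.

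In rich medium, 0 members were higher in disome-seq than in monosome-seq and 6 lower of 32 tested, where 9.03% of the 3089 genes tested were called higher and 9.42% lower. The edgeR test put 1 member higher and 11 lower at an unadjusted p under 0.05, and DESeq2 called 0 higher and 3 lower. The members' median was -0.67, against -0.37 over all genes. PRE9, the nonessential α subunit gene, had 47.3 and 0 scaled CPM in disome-seq, against 154 and 144 in monosome-seq (-2.47, SE 0.82, adjusted p = 0.0191). PRE5 had 23.6 and 61.5, against 212 and 190.4 (-2.33, SE 0.68, adjusted p = 0.00541), and PRE3 had 23.6 and 61.5, against 187 and 211 (-2.29, SE 0.68, adjusted p = 0.00662). The disome counts behind these values were 2 and 0 (PRE9), 1 and 2 (PRE5) and 1 and 2 (PRE3). RPN12 (-1.98, 4 and 0 disome counts), RPT4 (-1.48, 8 and 4) and RPN6 (-1.39, 2 and 5) were lower as well. RPT4 alone was called under every alternative. The count lower was 3 without replicate 1 of disome-seq, and 1 without either replicate of monosome-seq. It was 12 with the totals of the tables and 32 with the study's mapped reads.

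The change of disome over monosome between the conditions was higher under 3-AT for 4 members and lower for 0 of 32 tested, where 2.72% of the 2871 genes tested were called higher and 14.8% lower. At an unadjusted p under 0.05 the edgeR test put 6 higher and 2 lower, and DESeq2 called 5 higher and 0 lower. The members' median was 0.34, against -0.77 over all genes. The 4 were RPT3 (2.79, SE 0.59, adjusted p = 5.69e-05), PRE5 (2.51, SE 0.79, adjusted p = 0.0127), RPN5 (2.25, SE 0.60, adjusted p = 0.00224) and PUP1 (2.23, SE 0.57, adjusted p = 0.00120). These are 2 core subunit genes, an ATPase gene and a lid subunit gene. RPT3 was called under every alternative. The rich-medium disome counts behind these changes were few, at 6 and 2 (RPT3), 1 and 2 (PRE5), 4 and 2 (RPN5) and 8 and 1 (PUP1). Without rich-medium replicate 2 of disome-seq, 2 members were higher and 1 lower, PUP1 and RPN5 being lost, and without 3-AT replicate 2 of disome-seq 1 was lower. The count higher was 10 with the totals of the tables and 30 with the study's mapped reads.

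**Figure D3:**
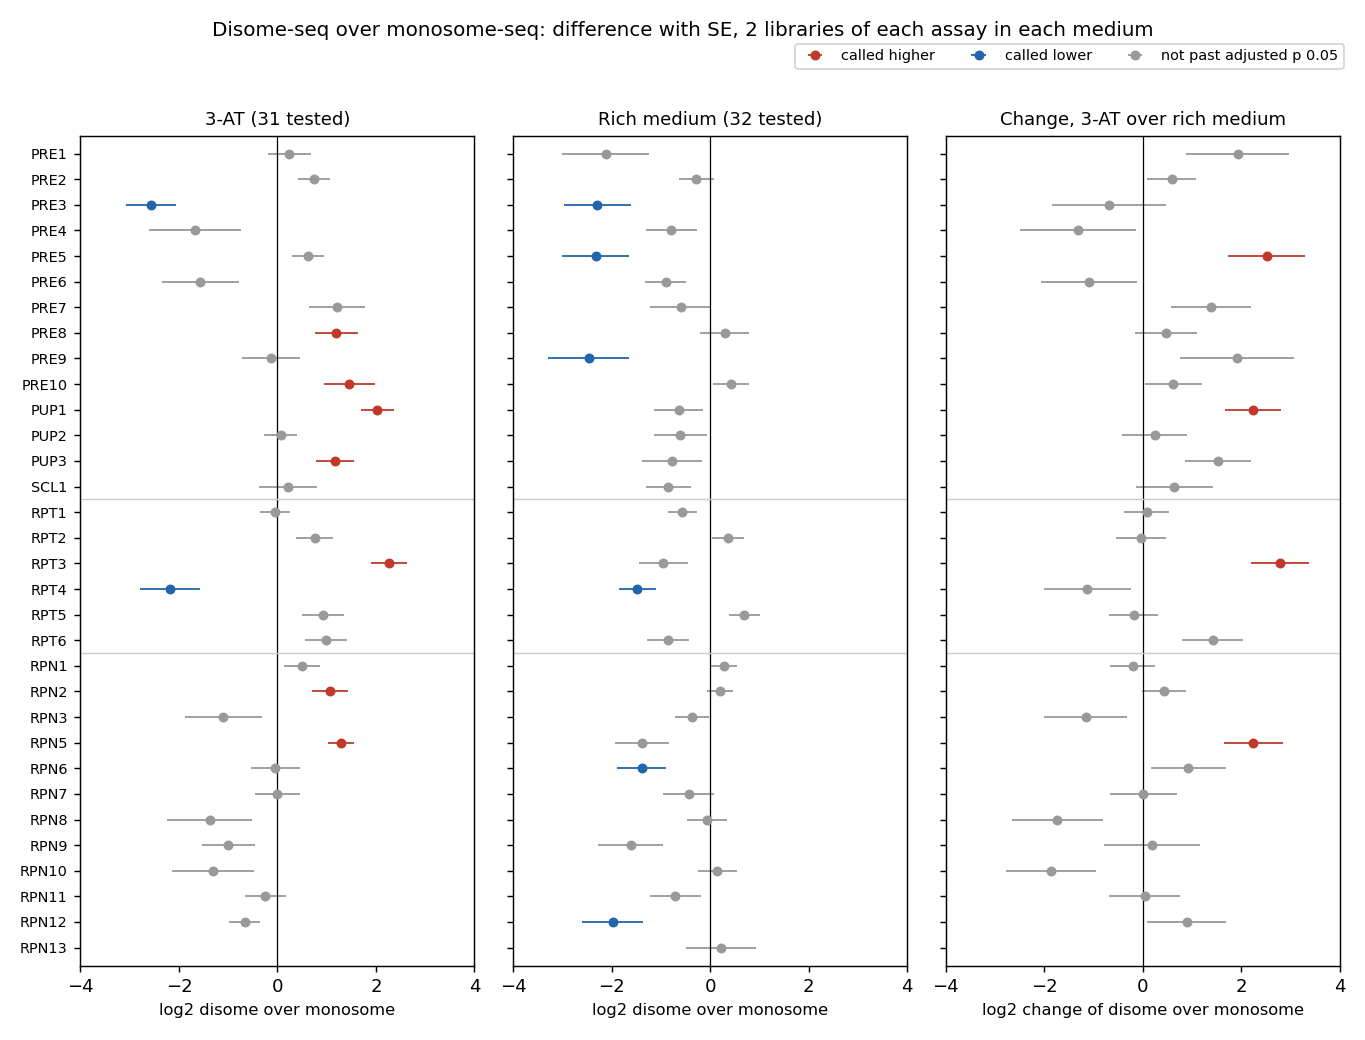
Log2 difference of disome-seq over monosome-seq for each member under 3-AT (left) and in rich medium (middle), and the change of this difference, 3-AT over rich medium (right), with bars of 1 SE from fits to 2 libraries of each assay in each condition. RPN13 was not tested under 3-AT and is left out of the right panel. RPT3 and PUP1 are red under 3-AT and in the change, and PRE3 and RPT4 are blue in both conditions.

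Histidine codons, which the drug starves of charged tRNA, made up a median of 1.92% of the members' codons (0 to 3.45%), against 2.06% over 6002 genes. PUP1 and PRE10 had the highest shares, 3.45% and 3.13%. Across genes, which are not independent replicates, the histidine share had a Spearman rho of 0.22 with the disome change over the 16 members tested, of -0.055 with the monosome change over 32, and of 0.10 with the change of disome over monosome over 32. Coding length had a rho of -0.59 with the disome change over the 16. With the change of disome over monosome over the 32, its rho was -0.17. Of the 16, 13 passed the filter only through 3-AT, so the values over the 16 cannot be separated from the filter.

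Of 16 assembly and associated factors, 7 rose and 4 fell in mRNA-seq, and 5 rose and 4 fell of 14 tested in monosome-seq, near the shares of all genes called (37.7% and 37.7% in mRNA-seq, 33.8% and 31.7% in monosome-seq). RPN4 itself was at 413 and 356 scaled CPM of mRNA-seq under 3-AT, against 116 and 131 in rich medium (1.64, SE 0.10, adjusted p = 1.63e-32), and rose by 1.29 in monosome-seq. The ubiquitin ligase gene HUL5 (1.89 in mRNA-seq) and the chaperone gene NAS2 (1.25) rose as well, and ECM29 (-1.58), which tethers core and cap, the maturation factor gene UMP1 (-1.07) and the core activator gene BLM10 (-1.02) fell. Of 11 genes that mark or deliver substrates, 3 rose and 5 fell in mRNA-seq, and 2 rose and 6 fell in monosome-seq. NPL4 and UFD1, cofactors of the Cdc48 segregase, rose by 0.97 and 0.94 in mRNA-seq, as did the ligase gene UFD4 (0.95), which fell in monosome-seq (-0.88, adjusted p = 0.000338), while the shuttle genes DSK2 (-3.30) and RAD23 (-1.21) and CDC48 (-0.68) fell. In disome-seq 3 of the 11 were tested, where 37% of the 624 genes tested were called higher and 43.1% lower. NPL4 rose (1.57) while UBA1, the ubiquitin-activating enzyme gene (-2.99), and CDC48 (-2.59) fell. A gene could enter this test through 1 condition alone, and its direction was then largely set. These 3 calls thus say nothing about the list.

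In the library of transcripts that carried 2 ribosomes, from rich medium and with no replicate, the members held 1460 of 401686 footprints (0.363%), and all 32 were present, with a median of 39.5 footprints. Their median log2 ratio to monosome-seq in rich medium was -1.18, against -0.76 over all genes, and 8 of 32 lay above the median of all genes. This library holds the same length class as the mRNA-seq tables, which is narrower than that of monosome-seq. The ratio of a gene may thus also depend on its mix of footprint lengths, which was not tested. RPN12 had 230 footprints and a ratio of 1.32, at the 89.7th percentile of all genes. RPT4 had 4 footprints and a ratio of -5.62. Across members the ratio had a Spearman rho of -0.54 with coding length, and of -0.28 across all genes.

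**Figure D4:**
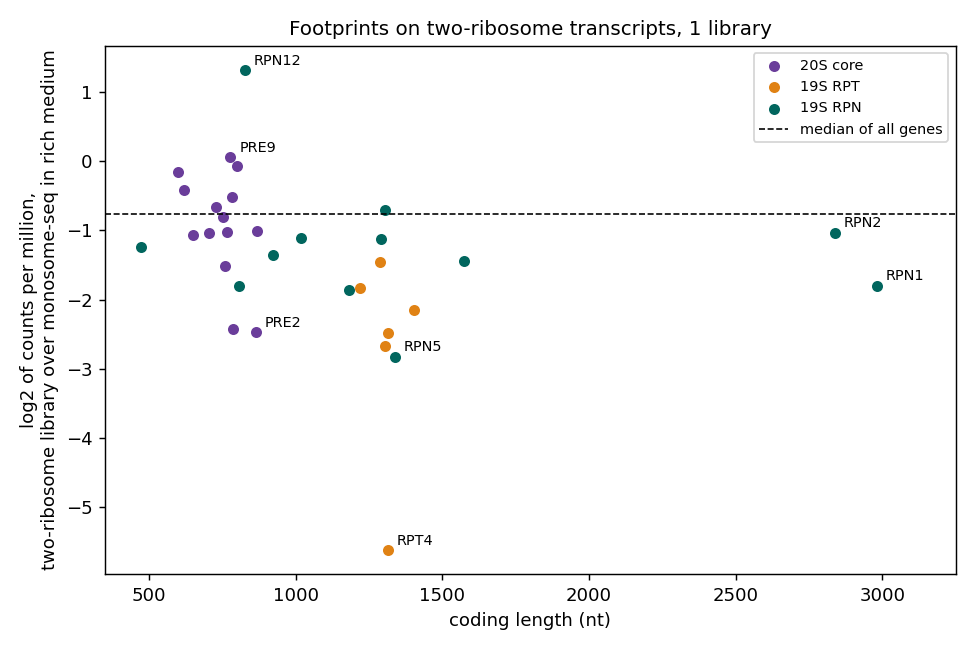
Log2 ratio of CPM in the 1 library of two-ribosome transcripts over the mean of monosome-seq in rich medium, against coding length in nt, for the 32 members by subcomplex. The two-ribosome library holds a narrower class of footprint lengths than monosome-seq. The dashed line is the median of all genes (-0.76). RPN12 lies highest at 1.32 and RPT4 lowest at -5.62.

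Footprints of this library gave the A-site position of each ribosome. The first 50 codons held 7.88% of the members' footprints (Wilson 95% interval 6.60 to 9.37%), against 15.7% over all genes. PRE4 had 38.5% of its 78 footprints there (28.4 to 49.6%), which are 30 of the members' 115. The share in a fixed window depends on coding length and on which genes are abundant, and neither was adjusted for. The 2 shares therefore do not show fewer footprints near the start of member genes. Some members had a pile at 1 position. PRE10 had 37.0% of 46 footprints at codon 110 (24.5 to 51.4%), SCL1 29.7% of 37 at codon 126 (17.5 to 45.8%), PUP2 24.0% of 50 at codon 87 (14.3 to 37.4%) and RPN12 12.2% of 230 at codon 178 (8.56 to 17.0%). These piles sit inside the coding sequence, away from the start codon. Others included PUP1 (26.7% of 15 at codon 207), PRE7 (23.5% of 34 at codon 84) and PRE6 (21.5% of 65 at codon 61). The top position of PRE2 was codon 4 (13.0% of 23). Each position was picked as the highest of its gene, a choice that the intervals do not cover. The methods say that copies of a read with the same molecular identifier were counted once, which cannot be checked here.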

How the data were processed

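Yeast libraries of 3 assays were analysed in 6 groups of 2, set by their labels, beside 1 library of two-ribosome transcripts. Per the methods, the authors trimmed reads (cutadapt 1.16), kept a 3-nt molecular identifier, aligned with Bowtie 1.2.2 and TopHat2 2.1.1 to R64-1-1 and discarded multiple alignments and a mapping quality under 30. As deposited by the authors, the values are counts of reads per gene or A-site position, without normalization. Per the methods, reads alike in length, sequence and identifier were counted as 1, which the tables do not allow to be checked. Tables hold 1 length class each, whose total is not a depth. Genes absent from a table were set to 0.

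Counts were fitted with edgeR 4.0.16 in R 4.3.3 (TMM factors, filterByExpr by group, quasi-likelihood F test, Benjamini-Hochberg adjustment over all genes tested, 0.05), with the SE as the log2 fold change over the root of F. Fits used the 4 libraries compared, or 8 for a change of a ratio. Alternatives were DESeq2 1.42.0, its size factors, table totals, the study's mapped reads, no filter, each library left out and a replicate block. The study's mapped reads are fewer than the totals of the monosome-seq tables and of the rich-medium mRNA-seq tables. That alternative therefore does not scale the counts fitted here. The fits were run on simulated counts with the same fixed dispersion for every assay, not estimated from these libraries. That run therefore does not show how firm the disome calls are. Intervals and floors (3 counts) cover counting error only. The labels number replicates without naming cultures, so p-values measure only the spread between these libraries. Levels per kb used table totals. Promoters were the 250 nt before the start codon in the RefSeq R64 genome. All called members are named, with every library for the 3 largest rises and falls. The members and lists were chosen with earlier results of these data known.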

Additional observations from a re-analysis of the deposited data

Results flagged for a closer look

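The fitted change of monosome over mRNA differed between 3-AT and rich medium, by the interaction of assay and condition, for 19 members. On the log2 scale it was higher under 3-AT for PRE3 (2.21), RPN11 (1.38), PUP2 (1.23), RPN12 (1.06), PRE1 (1.05), RPN7 (0.91), RPT1 (0.83), PUP3 (0.81), PRE5 (0.78), RPN6 (0.66), PRE9 (0.60), RPN10 (0.60), RPN1 (0.55) and RPN9 (0.53). It was lower for RPN2 (-0.44), RPN3 (-0.53), RPT3 (-0.61), RPN8 (-0.68) and RPT4 (-0.94). The change of disome over monosome differed by the same kind of test for RPT3 (2.79), PRE5 (2.51), RPN5 (2.25) and PUP1 (2.23). Of the 19, 9 were called in the same direction under every alternative, and of the 4, 1 was (RPT3). With the study's mapped reads, which do not count the reads fitted here, the 5 lower changes turned to higher.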

How the results depend on the processing

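The tables hold length classes, so the scaling sets the zero of each comparison. In rich medium the totals of the mRNA-seq tables (2256785 and 2836320) exceed the mapped reads that the study lists for those libraries. In monosome-seq the totals exceed them in both conditions. The listed reads thus do not count what the tables hold, and the values obtained with them cannot be read as results. With the study's mapped reads, members called higher and lower were 0 and 32 in mRNA-seq, 16 higher in disome-seq, 32 and 0 for the change of monosome over mRNA, 32 lower for disome over monosome in rich medium, 0 and 20 under 3-AT, and 30 higher for its change. There the mRNA-seq rises turned to falls for PRE8 (-1.04), PUP2 (-1.38), RPT4 (-1.32), RPN5 (-0.71) and RPN12 (-0.81), the lower changes of monosome over mRNA to higher for RPT3 (1.21), RPT4 (0.89), RPN2 (1.38), RPN3 (1.30) and RPN8 (1.14), and the higher disome over monosome under 3-AT to negative for PRE8 (-0.36), PRE10 (-0.085), PUP3 (-0.37), RPN2 (-0.49) and RPN5 (-0.27), with a median of -1.33. These member and median values were added after seeing the data. With the totals of the tables, 13 members were higher in mRNA-seq, 7 lower in monosome-seq, 12 lower for disome over monosome in rich medium and 10 higher for its change. The mRNA-seq changes of RPT5 (0.033) and RPN7 (0.0079) and the monosome-seq median (0.18) changed sign there. DESeq2 called 9 members higher for the change of monosome over mRNA, 3 lower for disome over monosome in rich medium and 3 higher under 3-AT, where no filter also gave 3. Leaving out a library gave a monosome-seq median of -0.23 to 0.018, 6 to 11 members higher in disome-seq, 9 to 13 higher and 2 to 6 lower for the change of monosome over mRNA, 1 to 5 lower for disome over monosome in rich medium, 2 to 7 higher and 0 to 1 lower under 3-AT, and 2 to 6 higher and 0 to 1 lower for its change. Of all values set against their main value, 1014 stayed, 150 lost their call, 72 moved and 20 changed sign. In disome-seq 16 members had too few counts to be tested.

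The replicate numbers are shared across groups, but the deviations of libraries with the same number correlated at only -0.12 to 0.10 over 9 pairs of groups. Counting error lowers such a correlation, so it cannot decide whether libraries with the same number shared a culture. With a replicate block 4 members were higher for disome over monosome under 3-AT, where the fit without it gave 7.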

Other observations

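The letters of the proteasome-associated control element also stood in the 250 nt before the start codon of some genes around the proteasome. Of 16 assembly and associated factors, 1 held them, ECM29, whose mRNA-seq and monosome-seq fell under 3-AT (-1.58 and -1.63). Of 11 genes that mark or deliver substrates, 2 held them, CDC48 and UBA1. CDC48, the segregase gene, fell by 0.68 in mRNA-seq, by 0.74 in monosome-seq and by 2.59 in disome-seq. UBA1, the ubiquitin-activating enzyme gene, fell by 0.47 in mRNA-seq, by 1.58 in monosome-seq and by 2.99 in disome-seq. A gene could enter the disome-seq test through 1 condition alone, so the direction of these 2 disome changes may be set by the filter. RPN4, whose product binds the element, rose in mRNA-seq (1.64) and monosome-seq (1.29), and its disome counts were too few to be tested.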
